A study of Homo sapiens with 2 samples.

Results

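The mRNAs of 10 circadian clock genes were described in Huh7, a human cell line established from a hepatocellular carcinoma, after exposure to the antihistamine homochlorcyclizine. They are the nuclear receptors NR1D1, NR1D2 and RORA, the repressors BHLHE40, BHLHE41, PER1, PER2, PER3 and CRY1, and CLOCK, which is an activator and neither a repressor nor a receptor. They were taken by symbol from the 19927 genes of the count table, and they were picked with their ratios in these libraries already known. Their differences are therefore descriptions and carry no test. All 10 had counts in both libraries and averaged 1 CPM (counts per 1e6 counts of the library) or more over them. Positions follow the RefSeq annotation of GRCh38.p14.

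The clock of mammalian cells is a loop of transcription factors. CLOCK and its partner BMAL1 bind E-box elements and switch on the PER, CRY, NR1D and BHLHE40/41 genes, and the PER and CRY proteins then block CLOCK and BMAL1. A second loop acts on BMAL1 itself, where NR1D1 and NR1D2 (REV-ERB alpha and beta) repress and RORA activates through a shared DNA element. In liver this loop times much of lipid, glucose and bile acid metabolism, and the mRNAs of most of its members cycle over the day.

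One culture had been kept for 48 h in medium with homochlorcyclizine dihydrochloride (HD) and the other for 48 h in medium with DMSO, the control; both were grown in serum-containing DMEM. The labels name no replicate, so each group is 1 library of poly(A)-selected mRNA. The HD library held 40791119 counts and the DMSO library 38133894. The dose of HD, and whether its medium also held DMSO, are not stated in the labels. With a single harvest time, a change in the level of a cycling mRNA and a change in its timing cannot be told apart.

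Defining liver mRNAs were abundant in both cultures. Albumin (ALB) stood at 5059 CPM in HD and 5244 CPM in DMSO, and alpha-fetoprotein (AFP) at 8540 CPM in HD and 11781 CPM in DMSO. Of the 7 liver genes listed, none reached 2-fold, 3 had ratios above 1 and 4 below, with the apolipoprotein gene APOB at 1.44, SERPINA1 and the transferrin gene TF both at 1.34 and AFP at 0.725. The 8 markers of leukocytes, endothelium and fibroblasts summed to 35.7 CPM in HD and 39.1 CPM in DMSO. Among them COL1A2 was at 0 counts in HD and in DMSO, where a count of 0 leaves room for 0.0737 CPM in HD and 0.0785 CPM in DMSO. PTPRC had 6 counts in HD and 2 in DMSO, and VWF had 6 in HD and 10 in DMSO. PECAM1 was lower in HD, at 5.63 CPM against 11.7 CPM in DMSO. CD68 was at 17.0 CPM in HD and 13.9 CPM in DMSO, and COL1A1 at 8.92 CPM in HD and 8.40 CPM in DMSO. The ratios of CD14, PDGFRB and CD68 were 0.624, 1.51 and 1.22. The part of other cell types in the results was not tested.

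Of the 10 clock genes, 6 were at least 2-fold higher in HD and 1, PER2, was at least 2-fold lower. Among the 6, PER3 averaged 1 CPM or more only through its HD value, at 2.65 CPM in HD and 0.707 CPM in DMSO. A gene was counted when its log2 ratio reached 2-fold and its 95% counting interval excluded a ratio of 1. The measure was applied to the 12353 genes that averaged 1 CPM or more, of which 5.81% were higher and 5.10% lower, but the members were picked on this very contrast and nothing is read from their share. In such bulk RNA, fewer cells with an mRNA and less of it per cell cannot be told apart. The median log2 ratio was 1.31 over the 10 genes and -0.01 over all genes tested. All ratios below are HD over DMSO, on CPM scaled by trimmed mean of M values (TMM), and all intervals cover counting error only, since no second culture was sequenced.

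**Figure D1:**
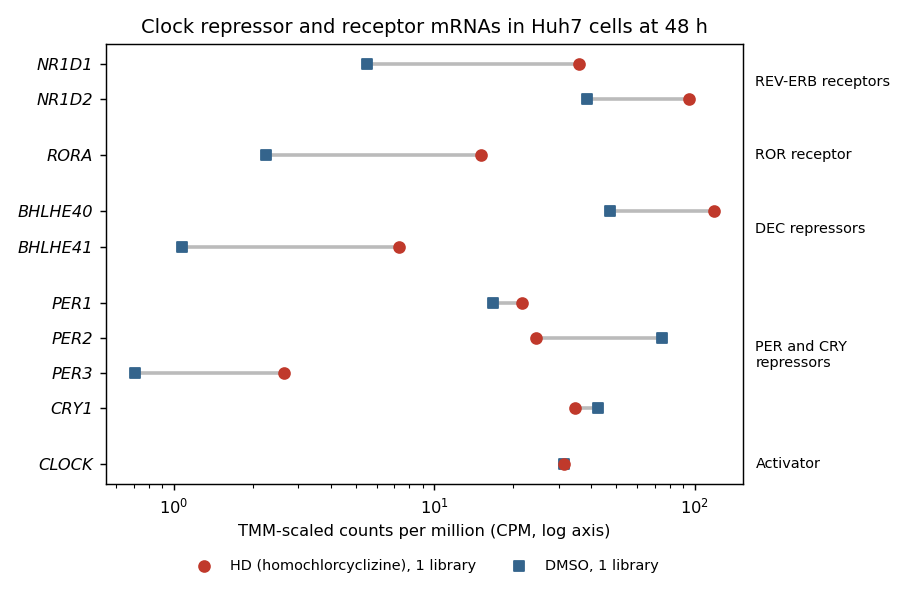
TMM-scaled CPM of each of the 10 genes (log axis) in the HD library (circles) and the DMSO library (squares), grouped by role, with 1 library per group. The HD point lies to the right for both REV-ERB receptors, RORA, both DEC repressors, PER3 and, by less, PER1. It lies somewhat to the left for CRY1 and far to the left for PER2, at 24.6 CPM in HD against 74.8 CPM in DMSO.

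Both REV-ERB receptors, which bind heme and recruit a corepressor, were higher in HD. NR1D1 (chromosome 17, 40092793 to 40100589) had 1455 counts in HD and 211 in DMSO, or 35.7 CPM in HD against 5.52 CPM in DMSO. Its ratio of 6.47 (5.60 to 7.51) put it 26th from the top among the 12353 genes tested. NR1D2 (chromosome 3, 23945286 to 23980617) had 3855 counts in HD and 1469 in DMSO, or 94.7 CPM in HD against 38.4 CPM in DMSO. Its ratio was 2.46 (2.32 to 2.62), so the rarer of the pair in DMSO was the one with the larger ratio.

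NR1D1 lies tail to tail with THRA, the thyroid hormone receptor alpha gene, on the opposite strand, and 263 of its 2772 annotated exon bases also belong to THRA. The labels give no strand setting for the counting, and without strand reads in that stretch cannot be assigned to either gene. THRA had 1123 counts in HD and 1182 in DMSO, a ratio of 0.892 (0.821 to 0.969). The count of THRA differed little and in the other direction from NR1D1. The part of shared reads in either ratio was not tested.

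RORA (chromosome 15, 60488284 to 61229302), the receptor that activates from the element the REV-ERBs repress, was also higher. It had 612 counts in HD and 86 in DMSO, or 15.0 CPM in HD against 2.25 CPM in DMSO. The ratio of 6.68 (5.32 to 8.47) was close to that of NR1D1 and ranked 23rd. Its relative RORB had 6 counts in each library.

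The DEC proteins are basic helix-loop-helix repressors that compete with CLOCK and BMAL1 for E-boxes. BHLHE40 (DEC1; chromosome 3, 4979437 to 4985323) had 4810 counts in HD and 1800 in DMSO, or 118 CPM in HD against 47.1 CPM in DMSO, a ratio of 2.51 (2.38 to 2.65). BHLHE41 (DEC2; chromosome 12, 26120030 to 26125037) had 298 counts in HD and 41 in DMSO, or 7.32 CPM in HD against 1.07 CPM in DMSO. Its ratio of 6.82 (4.91 to 9.70) was the highest of the 10 and ranked 22nd, on few counts in DMSO. As with the REV-ERBs, the paralog scarcer in DMSO had the larger ratio. The DMSO level is also the denominator of that ratio, so nothing is read from this pattern. SSPN, which shares 162 exon bases with BHLHE41 on the opposite strand, had 71 counts in HD and 58 in DMSO.

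Thus the ratios of NR1D1, RORA and BHLHE41 each lay above 6-fold, and 39 of the 12353 genes tested (0.316%), these included, lay that high. Their counting intervals reached below 6-fold, to 5.60 for NR1D1, 5.32 for RORA and 4.91 for BHLHE41. The 6-fold line was not among the thresholds of 1.5-, 2- and 3-fold. The members were picked with their ratios known, so nothing is read from the share above 6-fold. NR1D2 and BHLHE40 had lower ratios, near 2.5-fold, at ranks 369 and 350.

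The period genes, whose proteins carry the negative limb together with the cryptochromes, differed in the direction and size of their ratios. PER2 (chromosome 2, 238244044 to 238300065) had 1001 counts in HD and 2858 in DMSO, or 24.6 CPM in HD against 74.8 CPM in DMSO. Its ratio of 0.329 (0.306 to 0.353) was 194th from the bottom of the 12353 genes. PER1 (chromosome 17, 8140472 to 8152404), which also responds to glucocorticoid and cAMP signals, had 885 counts in HD and 639 in DMSO, or 21.7 CPM in HD against 16.7 CPM in DMSO. That is a ratio of 1.30 (1.17 to 1.44), above 1 but under 2-fold. PER3 (chromosome 1, 7784291 to 7845177) had 108 counts in HD and 27 in DMSO, or 2.65 CPM in HD against 0.707 CPM in DMSO, a ratio of 3.75 (2.44 to 5.96). PER3 reached the minimum of 1 CPM only through its HD value, and under a minimum of 5 CPM neither PER3 nor BHLHE41 would be counted. UTS2, which shares 868 exon bases with PER3 on the opposite strand, had 0 counts in both libraries.

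CRY1 (chromosome 12, 106991364 to 107093549), a cryptochrome that represses CLOCK and BMAL1 directly, had 1405 counts in HD and 1629 in DMSO. Its level was 34.5 CPM in HD against 42.6 CPM in DMSO, with a ratio of 0.810 (0.753 to 0.870). CLOCK (chromosome 4, 55427903 to 55546909), the activator subunit, had 1277 counts in HD and 1201 in DMSO. Its 31.4 CPM in each library gave a ratio of 0.998 (0.922 to 1.08). At this depth no difference in CLOCK was detectable, and the interval spans less than 10% to either side of 1. TMEM165, which shares 76 exon bases with CLOCK on the opposite strand, had a ratio of 1.14 (1.09 to 1.20).

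**Figure D2:**
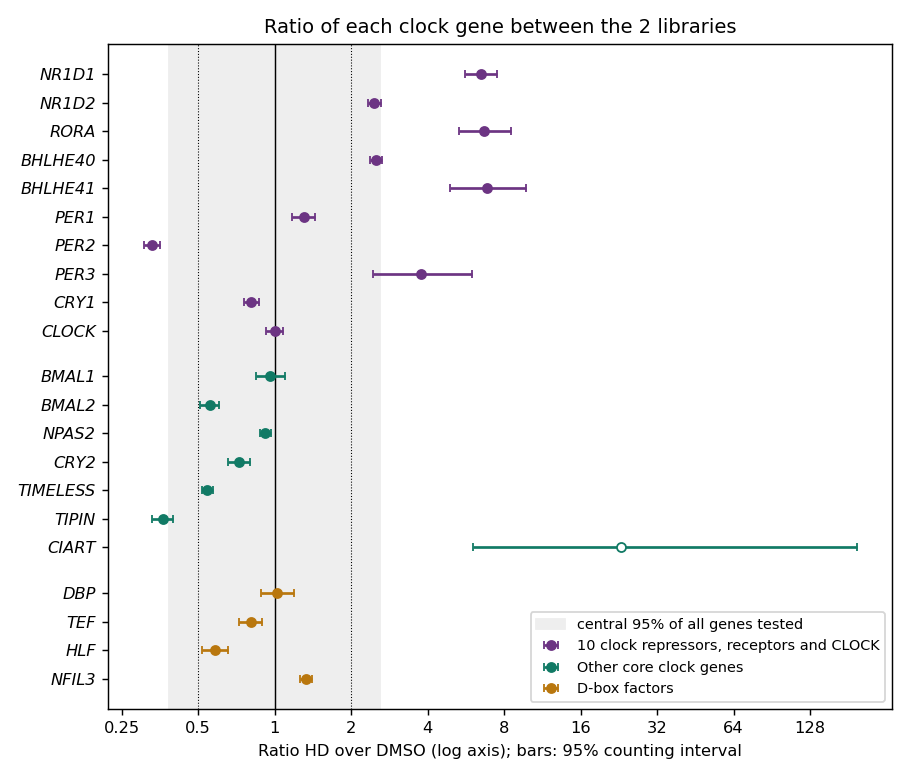
Ratio of HD over DMSO for the 10 genes, for other core clock genes and for the D-box factors (log axis, bars are 95% counting intervals, the open point is under the minimum of 1 CPM). The grey band holds the central 95% of all genes tested; NR1D1, RORA, BHLHE41, PER3 and CIART lie above it and PER2 and TIPIN below it.

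Levels of different genes were compared on the deposited FPKM values, which divide counts by gene length and library total. In HD the order of FPKM levels was BHLHE40 (37.4), NR1D2 (18.3), NR1D1 (13.6), CRY1 (11.2), PER1 (4.64), PER2 (3.81), CLOCK (2.80), BHLHE41 (1.95), RORA (1.36) and PER3 (0.412). In DMSO it was BHLHE40 (15.0), CRY1 (13.9), PER2 (11.6), NR1D2 (7.46), PER1 (3.58), CLOCK (2.82), NR1D1 (2.10), BHLHE41 (0.287), RORA (0.204) and PER3 (0.110). NR1D1 thus stood at place 3 of 10 in HD and 7 in DMSO, and PER2 at place 6 in HD and 3 in DMSO. In HD no neighbours in this order had overlapping counting intervals. In DMSO the intervals of BHLHE40 and CRY1 overlapped, as did those of BHLHE41 and RORA.

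The make-up of each family differed as well. The 3 period mRNAs summed to 8.86 FPKM in HD and 15.3 FPKM in DMSO. PER2 made up 43.0% of that FPKM sum in HD and 75.9% in DMSO, while PER1 made up 52.3% in HD and 23.4% in DMSO. By FPKM the leading period mRNA was thus PER1 in HD and PER2 in DMSO. That order in HD rests on the gene lengths used for FPKM. Without division by length PER2 led PER1 in both libraries, at 24.6 against 21.7 CPM in HD and 74.8 against 16.7 CPM in DMSO. The REV-ERB pair summed to 31.9 FPKM in HD and 9.57 FPKM in DMSO, and NR1D1 was 42.6% of it in HD and 22.0% in DMSO. In the DEC pair BHLHE41 was the minor mRNA, at 4.96% of 39.4 FPKM in HD and 1.88% of 15.3 FPKM in DMSO.

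**Figure D3:**
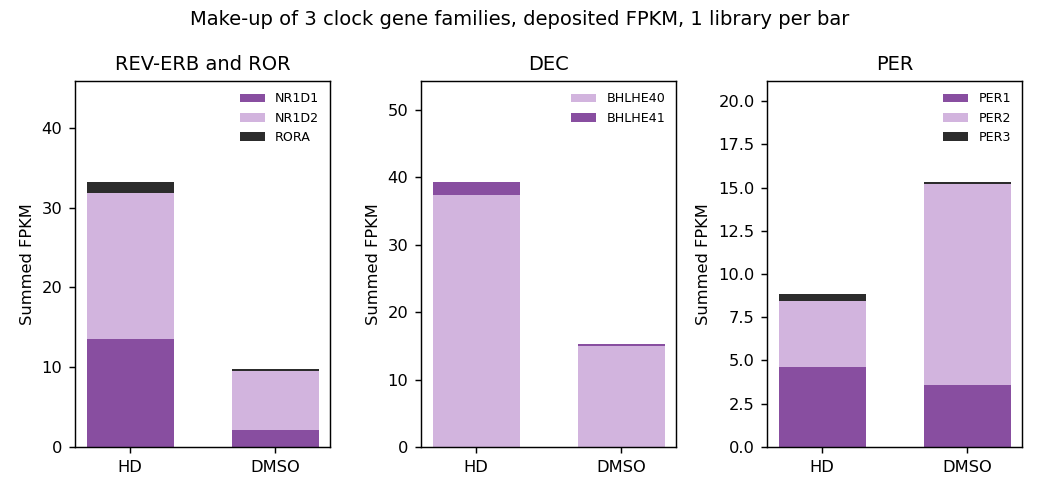
Deposited FPKM of the REV-ERB and ROR, DEC and PER families, stacked by gene, with the HD library left of the DMSO library and 1 library per bar. The PER stack is shorter in HD (8.86 FPKM) than in DMSO (15.3 FPKM) and has the smaller PER2 block, while the other stacks are taller in HD.

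Ratios between genes within a library need no scaling between libraries, and 8 such pairs were compared with exact conditional intervals from the counts. PER1 over PER2 was 1.22 in HD and 0.308 in DMSO on the FPKM scale, a shift of 3.95-fold (3.48 to 4.49). PER3 over PER2 shifted most, at 11.4-fold (7.38 to 18.2), on only 27 counts of PER3 in DMSO. NR1D1 over NR1D2 was 0.741 in HD and 0.282 in DMSO, a shift of 2.63-fold (2.24 to 3.09). BHLHE40 was 19.2 times the FPKM of BHLHE41 in HD and 52.1 times in DMSO, so that ratio was 0.368 (0.257 to 0.513) of its DMSO value.

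At the shared element RORA activates and the REV-ERBs repress. The FPKM ratio of RORA over NR1D1 shifted by 1.03-fold, with an interval of 0.785 to 1.37. RORA over NR1D2 shifted by 2.71-fold (2.14 to 3.47). CRY1 over its paralog CRY2 shifted by 1.12-fold (0.987 to 1.27), and CLOCK over NPAS2, which can replace CLOCK as the partner of BMAL1, by 1.09-fold (0.987 to 1.19). Those last intervals include 1, and shifts up to their bounds are not excluded by the counts.

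**Figure D4:**
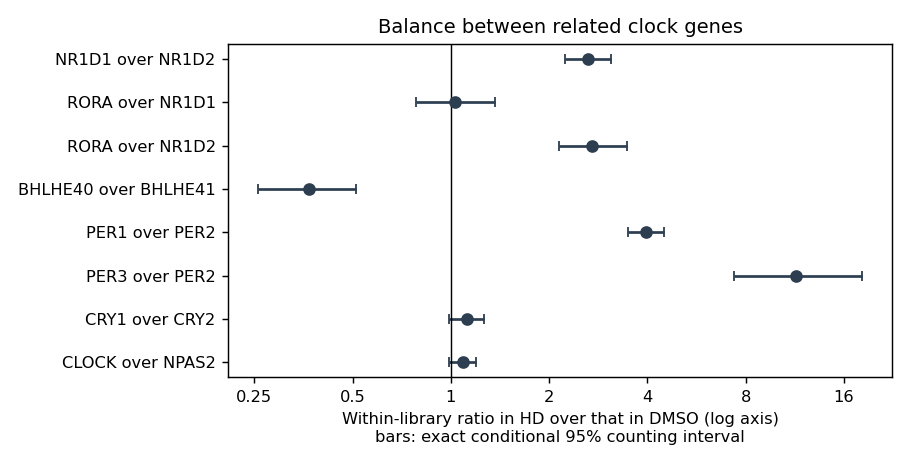
For 8 pairs of related clock genes, the within-library ratio in HD divided by that in DMSO (log axis, bars are exact conditional 95% counting intervals). PER3 over PER2 (11.4) and PER1 over PER2 (3.95) lie farthest above 1, and BHLHE40 over BHLHE41 (0.368) below it, while RORA over NR1D1 (1.03) lies at 1.

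Among the other core clock genes that averaged 1 CPM or more, none was 2-fold higher. Of 8 listed, 6 were tested, with a median log2 ratio of -0.66, against -0.29 over all 8 listed. All 6 tested had ratios below 1, and 1 was lower by 2-fold or more. That gene was TIPIN, which works with TIMELESS at DNA replication forks, at 14.5 CPM in HD against 40.0 CPM in DMSO (ratio 0.362, 0.329 to 0.399). TIMELESS had a ratio of 0.543, BMAL2 (a paralog of BMAL1) one of 0.555 and the cryptochrome CRY2 one of 0.724. The following were chosen after their values were seen. BMAL1, the partner of CLOCK and target of the REV-ERBs and RORA, had 465 counts in HD and 455 in DMSO, a ratio of 0.959 (0.841 to 1.09). NPAS2 had a ratio of 0.919 (0.872 to 0.968). CIART, an E-box-driven repressor of CLOCK and BMAL1, had 49 counts in HD and 2 in DMSO, a ratio of 23.0 (6.04 to 195). Its mean of 0.628 CPM kept it out of the counts above.

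The D-box factors read out the clock through a different element, at which DBP, TEF and HLF activate and NFIL3 represses. None of these 4 reached 2-fold, and their median log2 ratio was -0.14. DBP, a direct E-box target, was at 8.97 CPM in HD and 8.77 CPM in DMSO, a ratio of 1.02 (0.879 to 1.19). TEF had a ratio of 0.804 (0.723 to 0.892), HLF one of 0.581 (0.517 to 0.653) and NFIL3, a known REV-ERB target, one of 1.32 (1.25 to 1.40).

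No enzyme listed as acting on the clock proteins reached 2-fold. The 11 kinases and phosphatases had a median log2 ratio of 0.09. CSNK1E and CSNK1D, the casein kinases that phosphorylate PER proteins, had ratios of 1.57 (1.22 to 2.05) and 1.47 (1.42 to 1.51), GSK3B one of 1.21 and PPP5C one of 0.746. The 10 ubiquitin ligases and deubiquitinases had a median of 0.04. Among them TRIM28 and USP7 had ratios of 0.642 and 0.735, and the F-box proteins BTRC and FBXW7, which select substrates for degradation, 1.22 and 1.21.

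The 5 listed genes of the REV-ERB corepressor complex lay within a narrow range of ratios, 0.898 for the deacetylase HDAC3 to 1.07 for the subunit TBL1X, with a median log2 ratio of -0.13. GPS2 and TBL1XR1, subunits of the same complex, had ratios of 0.905 and 0.913. Of 12 tested coactivators and chromatin regulators, 1 was at least 2-fold lower, the histone methyltransferase EZH2 (ratio 0.479, 0.456 to 0.503), and the median was -0.10. SIRT1, a deacetylase of PER2 and BMAL1, had a ratio of 1.64 (1.51 to 1.79), SFPQ one of 0.597 and PPARGC1B one of 0.610.

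Of 10 tested clock output genes, 1 reached 2-fold, upward, and the median log2 ratio was 0.15. KLF10, a Kruppel-like repressor, was at 80.8 CPM in HD and 32.9 CPM in DMSO, a ratio of 2.46 (2.30 to 2.62). NAMPT, the rate-limiting enzyme of NAD salvage, had a ratio of 1.74 (1.67 to 1.80), and the gluconeogenic PCK1, at 36 counts in HD and 60 in DMSO, one of 0.563 (0.362 to 0.865). WEE1, a kinase that holds back entry into mitosis, had a ratio of 1.59 (1.52 to 1.67).

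**Figure D5:**
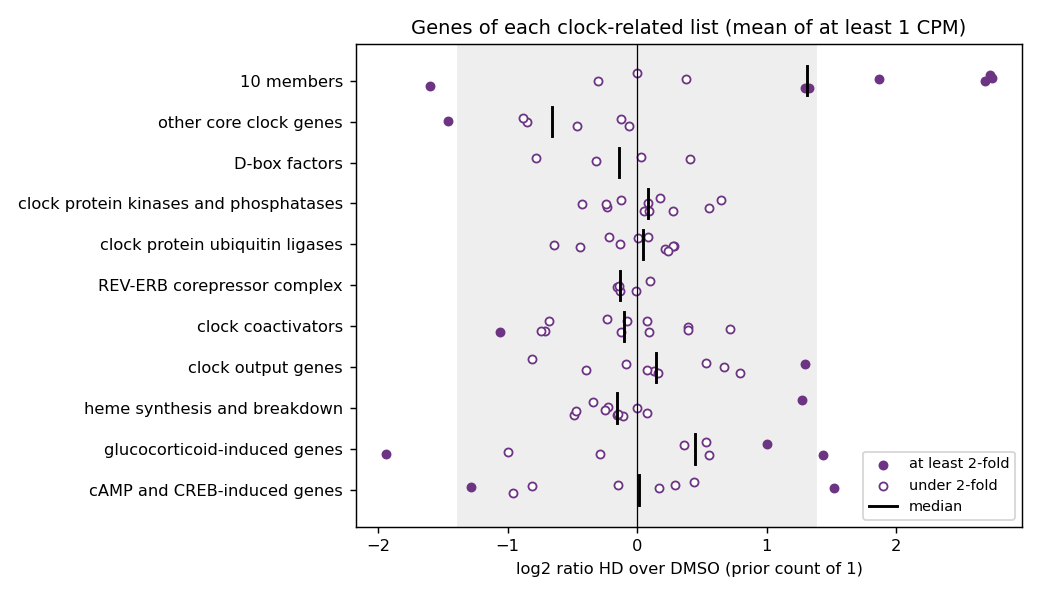
log2 ratio of HD over DMSO for the tested genes of each clock-related list (filled points are at least 2-fold, vertical bars are medians, vertical scatter within a row is only for legibility). The grey band holds the central 95% of all genes tested. Medians are 1.31 for the 10 members, -0.66 for the other core clock genes and -0.13 for the REV-ERB corepressor complex. The members were picked with their ratios known, so nothing is read from the distance between these medians.

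Windows around the start sites of the members were searched for clock elements. RefSeq windows on GRCh38.p14, from 250 bases upstream to 50 bases downstream of a start site, were at hand for all 10 genes, 13 windows in all. Parts of them are annotated in GENCODE 29 as exon of some gene, on either strand. These were all 250 upstream bases in BHLHE40, CRY1 and the farther CLOCK window, 223 in BHLHE41 and 136 in NR1D1. Fewer were in a PER3 window (57), PER1 (31) and an NR1D2 window (26), and 5 upstream stretches held no UTR bases. The PER2 window, like that of RORA, belongs to a start site inside the gene. The E-box was searched as CACGTG, which reads the same on both strands, and its variant as CACGTT on both strands. A total of 8 members had one or the other within a window, all but RORA and PER3. For comparison, 17.0% of the genes of the count table that had a window held either in at least 1 window. Of 35116 such windows of all genes, 7.26% held CACGTG and 5.34% held CACGTT. Among windows of at least 60% GC, like those of every member but RORA, the shares were 9.90% and 4.71%, and 14.2% held either. These are matches of letters, not shown binding sites. Sites outside the windows were not searched, and NR1D2 is shown further on. The stretches around each other match are given because they show which windows held the full E-box and which the variant. Each has 30 bases, 5′ to 3′ on the strand of the gene, with the match in capitals.
BHLHE40, E-box, chr3:4979187-4979216, plus strand: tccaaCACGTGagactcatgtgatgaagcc
BHLHE41, E-box, chr12:26125068-26125097, minus strand: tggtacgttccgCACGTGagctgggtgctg
PER1, E-box, chr17:8152560-8152589, minus strand: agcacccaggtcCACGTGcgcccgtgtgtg
NR1D1, variant on the opposite strand, chr17:40100740-40100769, minus strand: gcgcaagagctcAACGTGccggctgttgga
PER2, variant, chr2:238288790-238288819, minus strand: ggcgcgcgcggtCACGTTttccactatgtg
CRY1, variant on the opposite strand, chr12:107093621-107093650, minus strand: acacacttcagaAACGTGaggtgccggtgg
CLOCK, variant, chr4:55546102-55546131, minus strand: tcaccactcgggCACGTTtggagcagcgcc

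The 4 members with the full E-box in a window, BHLHE41, BHLHE40, NR1D2 and PER1, had ratios of 6.82, 2.51, 2.46 and 1.30. The variant stood in windows of NR1D1, CLOCK, CRY1 and PER2, with ratios of 6.47, 0.998, 0.810 and 0.329. The members were picked on these ratios, so the match of letters and ratio was not tested.

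NR1D2 had the most matches and is shown over the 250 bases upstream of its downstream start site (chr3:23945871-23946120, plus strand). Capitals mark, in order, a D-box, an E-box, the last part of the ROR element (TGGGTCA, here on the opposite strand) and another E-box.
NR1D2: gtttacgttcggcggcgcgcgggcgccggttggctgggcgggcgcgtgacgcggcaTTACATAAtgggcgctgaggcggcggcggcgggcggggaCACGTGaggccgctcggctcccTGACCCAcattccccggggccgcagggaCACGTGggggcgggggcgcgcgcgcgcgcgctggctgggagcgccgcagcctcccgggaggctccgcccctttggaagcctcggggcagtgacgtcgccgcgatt

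The D-box was searched as TTATGTAA and TTATGCAA on both strands, which 0.886% and 0.846% of all windows held, and 0.207% and 0.213% of those of at least 60% GC. Besides NR1D2, the matches were in PER1 and PER3, and the PER3 one is shown because that window had no E-box or variant.
PER3, D-box, chr1:7784103-7784132, plus strand: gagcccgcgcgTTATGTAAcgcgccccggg
PER1, D-box, chr17:8152416-8152445, minus strand: agtgcccggcaTTATGCAAcccgcctcccc

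The end of the ROR element was searched as TAGGTCA and TGGGTCA on both strands, held by 1.85% and 3.92% of all windows and by 0.675% and 2.99% of those of at least 60% GC. TGGGTCA matched in NR1D2 and CLOCK and TAGGTCA in no member. The cAMP response element TGACGTCA, in 1.85% of windows and 2.72% of the GC-rich ones, matched in no member. None of the 14 matches in the members overlapped another.

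RORA, the member without any match, had the only window of low GC content, 42.0% against 63.0% to 81.0% in the other windows. The farther start of its longest transcripts was not covered. The 250 upstream bases of this window (chr15:60627531-60627780, minus strand) are shown for contrast with NR1D2.
RORA: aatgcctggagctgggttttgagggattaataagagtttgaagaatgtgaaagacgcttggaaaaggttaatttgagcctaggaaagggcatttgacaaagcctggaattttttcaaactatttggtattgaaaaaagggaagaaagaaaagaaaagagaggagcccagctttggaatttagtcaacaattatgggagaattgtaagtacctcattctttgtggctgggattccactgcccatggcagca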

How the data were processed

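The authors deposited raw counts per gene for both libraries in 1 table and FPKM values in a table for each library. The columns were tied to samples through the labels' descriptions. The build was hg38, per the submitters' processing notes. Aligner, counter, annotation and strand setting were not given in the sources used here. FPKM ratios differed from count ratios over library totals by at most 3.13e-05%, so both hold 1 measurement.

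CPM were scaled with TMM factors (edgeR 4.0.16, R 4.3.3). Log2 ratios used a prior count of 1. Intervals on ratios are exact (Clopper-Pearson, 95%), and those on FPKM exact Poisson. Python 3.11.15, numpy 2.4.6, pandas 2.3.3, scipy 1.17.1 and matplotlib 3.10.9 were used. A count of 0 was given a limit of 3 counts. Since each group is 1 library, conditions were compared without a test and no p-value is given. The counting rule was also run on simulated counts that held counting error only. They had no variation between cultures, so that run cannot show how the rule fares with it.

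The members and lists were chosen with earlier results of these data known. Some genes of these lists are not reported here, and the counts leave them out. All 10 members are named. From each other list, genes of at least 2-fold and up to 4 with the largest absolute log2 ratio are named. ALB, COL1A1 and the markers of other cells at or near 0 counts are named beside them. Protein-coding genes that share exon bases with a member in GENCODE 29 are also named, where described. Gene positions are RefSeq's on GRCh38.p14, the assembly of hg38, counted from 1. A planned comparison of protein sequences was not made. Alternatives were other scalings (library totals, DESeq2 1.42.0 size factors, upper quartile), FPKM, prior counts of 0.25 and 5, other minimum levels and other fold thresholds.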

Additional observations from a re-analysis of the deposited data

How the results depend on the processing

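No paired analysis was possible because each group is 1 library. Under the 3 other scalings, the FPKM values and prior counts of 0.25 and 5, each of the 10 members stayed within its counting interval. NR1D1 ran from 2.67 to 2.72 on the log2 scale, RORA from 2.67 to 2.76, BHLHE41 from 2.63 to 2.77, PER3 from 1.74 to 1.90 and PER2 from -1.61 to -1.57. CLOCK, not called, ran from -0.01 to 0.03. The count of higher members was 6, or 4 with a minimum of 5 CPM and 4 at 3-fold. With the minimum of 5 CPM, which drops PER3 and BHLHE41, the median of the members was 0.84. Over all genes, 1197 were higher and 946 lower with no minimum level, 1736 higher and 1736 lower at 1.5-fold, and 192 higher and 201 lower at 3-fold. Of the 89 other clock-related genes listed, 82 were tested. Among these, 9 were higher and 14 lower at 1.5-fold, and 0 were higher and 1 lower at 3-fold, against 5 and 4 at 2-fold. Over all genes tested, 5.81% were higher and 5.10% lower at 2-fold. Among glucocorticoid-induced genes, library totals and FPKM gave 1 higher and 2 lower in place of 2 and 1, since DUSP1 and FKBP5 lie at the 2-fold line. The 27 counts of PER3 and 41 of BHLHE41 in DMSO limit their ratios most.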

Other observations

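Genes that signals to the clock are known to induce were mixed. Of 8 tested glucocorticoid-induced genes, 2 were at least 2-fold higher in HD and 1 lower, with a median log2 ratio of 0.45. TSC22D3 (GILZ, an anti-inflammatory target of the glucocorticoid receptor) was at 31.1 CPM in HD and 11.5 CPM in DMSO, a ratio of 2.72 (2.43 to 3.03), and the phosphatase DUSP1 had one of 2.00 (1.90 to 2.11). FKBP5, a cochaperone of that receptor, had a ratio of 0.501 (0.460 to 0.545) and the metallothionein MT2A one of 0.259 (0.218 to 0.307). Of 8 tested cAMP and CREB-induced genes, 1 was at least 2-fold higher and 1 lower, with a median of 0.01. These were 2 members of the same orphan receptor family: NR4A1 was at 27.0 CPM in HD and 9.40 CPM in DMSO (ratio 2.87, 2.55 to 3.24), and NR4A2 at 8.62 CPM in HD and 21.0 CPM in DMSO (ratio 0.411, 0.361 to 0.466). SIK1 had a ratio of 0.512 (0.401 to 0.652).

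Heme is the ligand of the REV-ERB receptors. Of 11 tested genes of heme synthesis and breakdown, 1 reached 2-fold, upward, and 9 had ratios below 1, with a median log2 ratio of -0.15. HMOX1, the inducible heme oxygenase, was at 135 CPM in HD and 55.9 CPM in DMSO, a ratio of 2.42 (2.30 to 2.54). Its constitutive relative HMOX2 had a ratio of 0.720 (0.661 to 0.784). In the synthesis pathway CPOX had a ratio of 0.713 (0.682 to 0.745) and UROS one of 0.789 (0.738 to 0.843).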
